A study of Mus musculus with 4 samples.

Results

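Iron and heme handling was followed through 8 genes, Hmox1, Fth1, Ftl1, Slc40a1, Tfrc, Slc11a1, Trf and Cp, taken by symbol from the 32285 genes of the count tables, in single cells of mouse brown adipose tissue (BAT). Cells of the stromal vascular fraction (SVF), the tissue left after floating adipocytes are removed, were sequenced from 4 groups to ask how obesity changes the cells of BAT. The groups were WT mice labelled 10 weeks old, db/db mice of 8 and of 16 weeks, and mice on a high-fat diet (HFD) labelled 10 weeks old, although the study's methods start the diet at 10 weeks of age and keep it for 10 weeks. The labels give the strain C57BL6/J for all 4, and the methods give B6.BKS(D)-Leprdb/J for the db/db mice, which lack a working leptin receptor. Each group is 1 library of SVF pooled from 3 mice, so no test between groups is possible and intervals around a library's value cover counting error only.

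Cells pick up iron bound to transferrin (Trf) through the transferrin receptor (Tfrc), store it inside ferritin, whose heavy and light chains are Fth1 and Ftl1, and release it through ferroportin (Slc40a1), aided by ferroxidases such as ceruloplasmin (Cp). Macrophages that take up dying red cells free iron from heme with heme oxygenase 1 (Hmox1), and Slc11a1 moves metal ions out of the phagosome. Much of the control is on the mRNA itself: when iron is low, iron regulatory proteins bind hairpins called iron-responsive elements, which blocks translation when the hairpin lies in the 5′UTR and protects the mRNA when it lies in the 3′UTR, and a count of transcripts reads only the latter.

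These hairpins are shown because they divide the 8 genes by how their mRNA is controlled. UTRs of GENCODE vM21 (GRCm38) were searched on the transcript strand for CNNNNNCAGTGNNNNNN, in which the sixth base of the loop is A, C or T and the last 5 bases pair with the 5 before the loop. A match was found in the 5′UTR of 21 of 20848 genes (0.101%) and in the 3′UTR of 97 of 20846 genes (0.465%). Fth1, Ftl1 and Slc40a1 each held 1 in the 5′UTR, Tfrc held 4 in the 3′UTR, and these letters were not found in the UTRs of Hmox1, Slc11a1, Trf or Cp. In the lines that follow, capitals mark the 6 bases of the loop, and the first 3 come from 5′UTRs at chr19:9982733-9982759 (+ strand), chr7:45459780-45459806 (− strand) and chr1:45925466-45925492 (− strand).
Fth1: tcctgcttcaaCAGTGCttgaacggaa
Ftl1: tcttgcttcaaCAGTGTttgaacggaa
Slc40a1: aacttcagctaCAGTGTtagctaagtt
Tfrc 1: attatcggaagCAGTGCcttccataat
Tfrc 2: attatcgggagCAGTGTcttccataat
Tfrc 3: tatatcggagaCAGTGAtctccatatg
Tfrc 4: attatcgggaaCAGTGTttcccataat
The 4 Tfrc hairpins lie on the + strand in its 3′UTR at chr16:32631220-32631246, chr16:32631599-32631625, chr16:32631664-32631690 and chr16:32631711-32631737. All 8 genes are protein coding, at chr8:75093621-75100589 (Hmox1, +), chr19:9980598-9985098 (Fth1, +), chr7:45457944-45459884 (Ftl1, −), chr1:45908068-45926523 (Slc40a1, −), chr16:32608920-32632794 (Tfrc, +), chr1:74375195-74386062 (Slc11a1, +), chr9:103204001-103230444 (Trf, −) and chr3:19957054-20009145 (Cp, +). The ferritin chains have near-identical copies elsewhere in the genome, and 1 of these, Ftl1-ps1, was counted at 62.8 to 108 CPM (counts scaled to 1e6 per class and library) in macrophages, so ferritin counts are uncertain by what was split among copies.

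After filters on genes, UMIs (unique molecular identifiers, 1 per captured transcript) and mitochondrial share, 28887 cells remained, 5462 to 11648 a library, with 26558173 to 53420105 UMIs and a median of 2733 to 6218.5 UMIs a cell. The filters kept 31.3% of HFD barcodes and 63.6% to 89.5% in the other libraries, and any pair of libraries shared 7 to 25 kept barcodes. The db/db 16w library stood apart: Xist, transcribed from the inactive X chromosome, was at 207 CPM against 0.188 to 0.688 in the others, and Y-linked genes were at 17.7 CPM against 164 to 188, although the methods describe males. Results that use this library are therefore also given without it or library by library, apart from the genes most like each member. Cells were assigned to lineages from raw marker UMIs: 1212, 2953, 2324 and 1618 cells were macrophage-like in WT, the younger db/db (8w), the older db/db (16w) and HFD mice, which is the order of libraries in every list of 4 values that follows (lists of 3 leave out WT), and 4369, 6816, 1175 and 1717 were stromal-like. Within macrophage-like cells, the lipid-associated macrophage (LAM) markers Trem2, Cd9, Gpnmb and Spp1 and the perivascular macrophage (PVM) markers Lyve1, Folr2, Cbr2 and Cd209f gave 25, 883, 1682 and 1175 LAM-like and 1043, 1483, 300 and 80 PVM-like cells. LAM-like cells thus made up 2.06%, 29.9%, 72.4% and 72.6% of macrophage-like cells, and in 14.4% to 24.0% of macrophage-like cells the larger of the 2 subset sums was 1 to 3 UMIs, near the minimum of 2. All 7 macrophage markers were detected in macrophage-like cells, and all 6 stromal markers in stromal-like cells, of every library.

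Most of the 8 genes were higher in macrophages than in stromal cells, the other large lineage. Over the 4 libraries, 6 of the 8 genes were higher in macrophage-like than in stromal-like cells and none was lower, by edgeR's quasi-likelihood test with library as a block and Benjamini-Hochberg adjustment over 14649 genes. Among all genes tested, 26.2% were higher and 27.2% were lower. The median difference of the 8 genes was 2.58 on the log2 scale against 0.0148 over all genes. The same 6 genes were called without db/db 16w, and without db/db 8w 4713 genes were called in all, against 7826.

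Hmox1 was at 1280.0, 471, 281 and 119 CPM in macrophage-like cells and at 64.8, 79.9, 94.3 and 63.7 CPM in stromal-like cells. The macrophage level was above the stromal level in each library, but the gap narrowed from 4.30 on the log2 scale in WT to 0.90 in HFD, because the macrophage level differed between libraries and the stromal level hardly did. The fitted difference was 2.58 ± 0.59 (SE, n = 4 libraries, edgeR adjusted p = 0.0125). Without db/db 8w it was not called (adjusted p = 0.0627), and without WT it was 1.95.

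The ferritin heavy chain Fth1, which oxidises the iron it stores, was at 5482, 8065, 10335 and 11210.2 CPM in macrophage-like cells and at 3729, 3478, 3200.0 and 3698 CPM in stromal-like cells. The light chain Ftl1, which helps the iron core form, was at 5446, 9691, 16042 and 11362 CPM in macrophage-like cells and at 1496, 1873, 2296 and 2537 CPM in stromal-like cells. Both chains were abundant in either lineage, and higher in macrophages in each of the 4 libraries. The fitted differences were 1.54 ± 0.28 for Fth1 (SE, edgeR adjusted p = 0.00508) and 2.57 ± 0.27 for Ftl1 (adjusted p = 7.73e-04), and Fth1 was not called without HFD (adjusted p = 0.0525).

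Ferroportin, Slc40a1, was rare in both lineages, at 23.5, 9.55, 19.3 and 7.2 CPM in macrophage-like cells and 1.56, 3.19, 15.2 and 10.2 CPM in stromal-like cells. The macrophage excess of 3.92 on the log2 scale in WT was 0.35 in db/db 16w, and HFD had -0.51. The difference did not pass the test (1.54 ± 0.74, edgeR adjusted p = 0.125), except without HFD (adjusted p = 0.0432). Tfrc was at 96.9, 70.6, 12.6 and 25.2 CPM in macrophage-like cells and at 1.56 to 9.11 CPM in stromal-like cells, a fitted difference of 3.60 ± 0.63 (adjusted p = 0.00454), which was 2.90 without WT and 4.26 without HFD. Slc11a1 was at 95.4, 132, 103 and 182 CPM in macrophage-like cells and at 2.61 to 17.6 CPM in stromal-like cells, and was 3.93 ± 0.43 higher (adjusted p = 8.77e-04). For both genes the macrophage level was above the stromal level in each library. Transcripts of the macrophage marker list were also found in stromal-like cells, at 175, 450.2, 247 and 483 CPM (7154 to 13648 CPM in macrophage-like cells), and their part in the low stromal values of these genes was not tested.

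Trf, the carrier, was at 620.1, 515, 124 and 814 CPM in macrophage-like cells and at 63.5, 50.2, 15.9 and 124 CPM in stromal-like cells. Its order of libraries was the same in both lineages, with db/db 16w lowest and HFD highest, and it was 3.35 ± 0.21 higher in macrophages (edgeR adjusted p = 3.15e-04). The macrophage marker list in stromal-like cells was at 175, 450.2, 247 and 483 CPM, and its part in the stromal Trf level was not tested. The ferroxidase Cp was the one gene of the 8 with a higher stromal level in each library. It was at 123, 34.1, 2.87 and 10.6 CPM in macrophage-like cells and at 140, 126, 166 and 259 CPM in stromal-like cells, so that the lineages were alike in WT (a log2 difference of -0.18) and far apart in db/db 16w (-5.85) and HFD (-4.60). In WT the stromal marker list was at 728 CPM in macrophage-like and at 32467 CPM in stromal-like cells, and its part in the macrophage Cp level was not tested. Over the 4 libraries the Cp difference was -2.83 ± 1.08 on the log2 scale and did not pass the test (adjusted p = 0.0676), with values from -3.84 to -1.96 when 1 library was left out, but it did without WT (adjusted p = 0.0148), with a stricter gate (0.0267), with no filter on low counts (0.0164) and with DESeq2 (8.25e-04).

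The share of cells with a UMI told the same order for Hmox1. With each cell thinned to 1000 UMIs, Hmox1 was detected in 53.0%, 29.9%, 18.6% and 11.2% of macrophage-like cells (85.2%, 61.1%, 53.6% and 45.4% without thinning) and in 5.36% to 6.71% of stromal-like cells. As a background, 0 of 87 T and NK cells of db/db 8w had a Hmox1 UMI at that depth, which allows up to 3.45% of cells with a UMI, and 0 of 45 of db/db 16w, which allows 6.67%. Unthinned, 5 of 89 (5.62%) and 1 of 54 (1.85%) had one. Median depth before thinning was 5272 UMIs in macrophage-like and 3165 in T and NK cells of db/db 8w. Trf was detected in 40.8%, 39.7%, 15.8% and 50.2% of thinned macrophage-like cells and in 1.23% to 9.27% of stromal-like cells. Cp was detected in 10.6% to 21.7% of stromal-like cells, against 11.6%, 4.48%, 0.714% and 1.3% of macrophage-like cells. Fth1 and Ftl1 were found in at least 90.8% of macrophage-like cells of every library, so for them a share says little and the level carries the difference.

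LAMs and PVMs divided the genes between them. Within the libraries, LAM-like cells had more ferritin (Fth1, Ftl1) and Slc11a1, and PVM-like cells had more Hmox1, Slc40a1, Tfrc, Trf and Cp. All 8 genes differed by edgeR's quasi-likelihood test with Benjamini-Hochberg adjustment over 12249 genes, 3 higher and 5 lower in LAM-like cells. Among all genes, 17.6% were higher and 13.3% were lower, with a median difference of 0.0023 against -1.08 for the 8 genes. The WT library, with 25 LAM-like cells, was not used, so the fit rests on the 3 obese libraries, with the library as a block. Without the block none of the 8 genes was called (adjusted p from 0.0878 to 0.64).

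Hmox1 was at 174, 267 and 111 CPM in LAM-like cells of the obese libraries, and at 915, 507 and 176 CPM in PVM-like cells of the same libraries. PVM-like cells had more in each of the 3, but the log2 difference shrank from -2.39 to -0.92 and -0.66, and the fitted value was -1.14 ± 0.27 (SE, edgeR adjusted p = 0.00326). Without db/db 8w it was -0.53 and was not called (adjusted p = 0.0925).

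Fth1 was at 9385, 10660.4 and 12099.5 CPM in LAM-like cells against 7016, 7164 and 5434 CPM in PVM-like cells, and Ftl1 was at 13246, 16961 and 12326 CPM against 6233, 9217 and 5927 CPM. For both ferritin chains the LAM-like level was above the PVM-like level in each of these libraries. The fitted differences were 0.93 ± 0.16 for Fth1 (edgeR adjusted p = 2.38e-04) and 1.23 ± 0.14 for Ftl1 (adjusted p = 3.56e-06). Slc11a1, the phagosomal transporter, went with ferritin, at 168, 108 and 192 CPM in LAM-like against 83.1, 49.4 and 98 CPM in PVM-like cells. It was also higher in LAM-like cells of each library (1.25 ± 0.18, adjusted p = 3.07e-05).

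The 2 genes of transport across the cell membrane went the other way. Slc40a1 was at 3.12, 10.9 and 5.11 CPM in LAM-like cells and at 18.8, 127 and 30.8 CPM in PVM-like cells, a fitted difference of -2.79 ± 0.23 (edgeR adjusted p = 4.83e-08). Tfrc was at 21.7, 12 and 21.7 CPM in LAM-like cells and at 140, 29.5 and 64.4 CPM in PVM-like cells (-1.80 ± 0.27, adjusted p = 5.09e-05, and -1.15 without db/db 8w). Thus the exporter and the receptor for uptake were both lower in LAM-like cells of each obese library.

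Trf was at 391, 90.3 and 817 CPM in LAM-like cells and at 711, 474 and 1137 CPM in PVM-like cells. PVM-like cells had more in each library (log2 ratios of LAM-like to PVM-like of -0.86, -2.39 and -0.48), and the fitted difference was -1.01 ± 0.23 (edgeR adjusted p = 0.00221). Without db/db 16w, the library that stood apart, Trf was not called (adjusted p = 0.0745). Over all genes 1790 were called without it and 2294 without db/db 8w, against 3786 with all 3 libraries. Cp had the largest difference of the 8 genes, -3.86 ± 0.32 (adjusted p = 3.82e-08), at 4.63, 0.526 and 8.78 CPM in LAM-like against 79.1, 33.3 and 64.4 CPM in PVM-like cells. The db/db 16w value rests on 8 UMIs in 1682 cells, of which 7 (0.416%) had a Cp UMI.

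**Figure D1:**
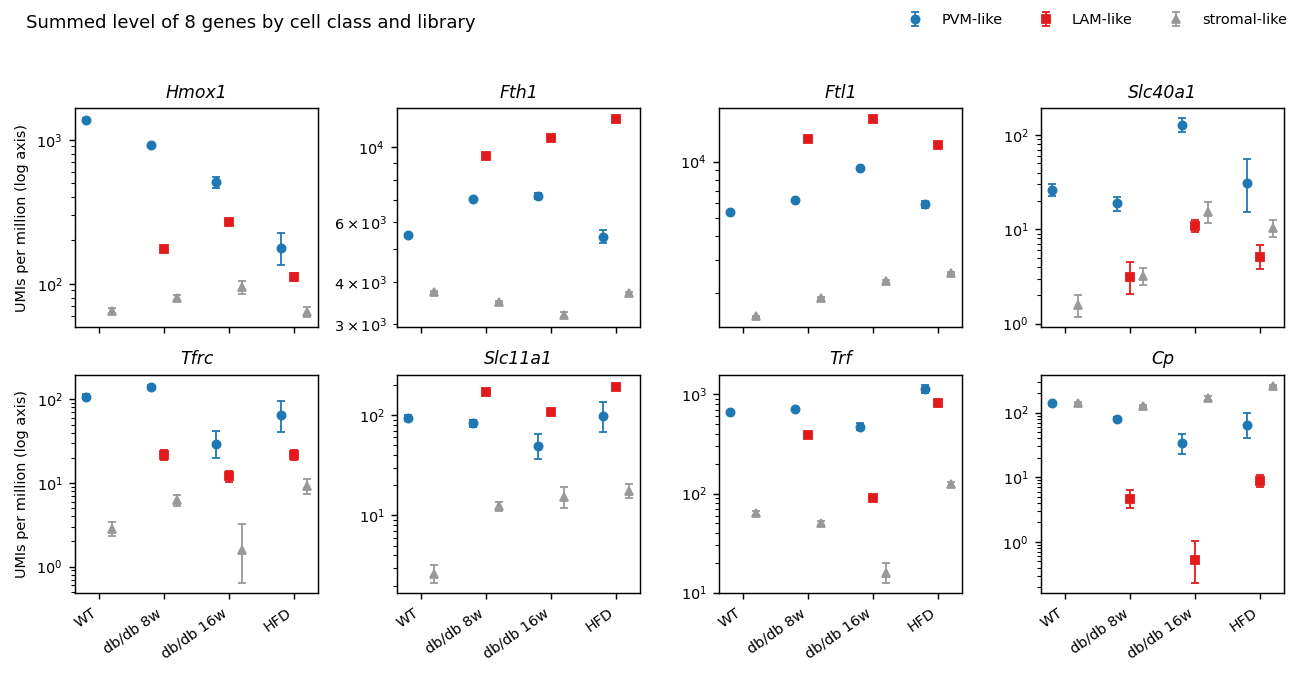
Level of each of the 8 genes, 1 panel a gene, in PVM-like (circles), LAM-like (squares) and stromal-like cells (triangles) of the 4 libraries, in summed UMIs scaled to CPM on a log axis, with exact 95% Poisson intervals that cover counting error only; WT has no LAM-like point because it held 25 such cells. Hmox1 in PVM-like cells runs from 1381 CPM in WT to 176 in HFD while its stromal-like level stays between 63.7 and 94.3, and Cp is the one gene with stromal-like levels above the LAM-like and PVM-like levels in each obese library.

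**Figure D2:**
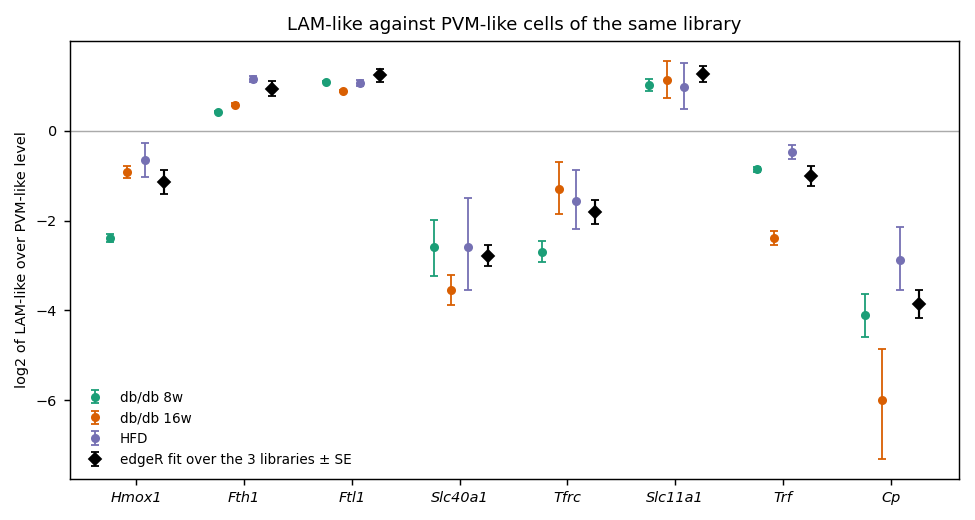
Log2 ratio of the LAM-like to the PVM-like level of each gene, with 1 point for each of the 3 obese libraries (bars, 95% intervals for counting error) and a diamond for the edgeR fit over them (bar, SE), and a line at 0. Points lie above 0 for Fth1, Ftl1 and Slc11a1 and below 0 for the other 5 genes in all 3 libraries, with Cp lowest at a fitted -3.86.

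Against WT, macrophages of the obese libraries had lower levels of Hmox1, Cp and Tfrc and higher levels of both ferritin chains in all 3 libraries. Past 2-fold were Hmox1 and Cp in all 3, Tfrc in 2, Ftl1 in 2 and Fth1 in 1. A difference is called here at 2-fold or more with 10 CPM added to both levels, among genes of at least 20 CPM in 1 of the libraries, with 1 library a group and no test. All 8 genes passed the filter. In db/db 8w 0 genes of the 8 were called higher and 2 lower (Hmox1, Cp), where 3.62% and 3.2% of all 5750 genes were. In db/db 16w 1 was called higher (Ftl1) and 4 lower (Hmox1, Tfrc, Trf, Cp), where 17.2% and 19.3% of 6070 genes were. In HFD 2 were called higher (Fth1, Ftl1) and 3 lower (Hmox1, Tfrc, Cp), where 9.08% and 8.26% of 6112 genes were. The 3 comparisons share the WT library.

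Hmox1 had intervals of 1255 to 1305, 462 to 481, 273 to 289 and 112 to 125 CPM in the 4 libraries, which cover counting error only. Its level was 2.72-fold, 4.55-fold and 10.8-fold below that of WT. Fth1 was 1.47-, 1.89- and 2.04-fold higher and Ftl1 1.78-, 2.95- and 2.09-fold higher in the same order. In HFD the median of all genes in macrophage-like cells was itself 0.17 above WT on the log2 scale, and relative to it Fth1 (0.86) and Ftl1 (0.89) were under 2-fold. The log2 ratios of Cp were -1.85, -5.42 and -3.53, and those of Tfrc -0.46, -2.95 and -1.94. Trf had no common direction, at -0.27, -2.33 and 0.39, and Slc11a1 was called in no library (0.46, 0.11 and 0.93). Slc40a1 had log2 ratios of -1.30, -0.28 and -1.71, which were under 2-fold with 10 CPM added (-0.78, -0.19 and -0.96).

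Part of this was not seen within a macrophage subset. Within PVM-like cells alone, Fth1 was at 5489.6, 7016, 7164 and 5434 CPM and Ftl1 at 5381, 6233, 9217 and 5927 CPM, so that ferritin in HFD differed little from WT (log2 ratios of -0.01 and 0.14). With the subsets of each obese library weighted as in WT, where PVM-like cells held 86.2% of macrophage UMIs, 5 of the 24 member-library pairs were past 2-fold in place of 12. Of the 12, 8 were lost, and 1 pair was gained, Slc40a1 in db/db 16w (1.87 with 10 CPM added). The Fth1 log2 ratios became 0.35, 0.42 and 0.08, and those of Ftl1 0.25, 0.79 and 0.19. Hmox1 had log2 ratios of -0.65, -1.45 and -2.91 and Cp of -0.83, -2.06 and -1.12. With 10 CPM added, Hmox1 in db/db 8w (-0.64), Cp in db/db 8w (-0.75) and Cp in HFD (-0.997) were no longer past 2-fold.

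Hmox1 within PVM-like cells was at 1381 CPM in WT (95% bounds 1353 and 1409), 915 (893 to 938), 507 (464 to 551) and 176 (136 to 226). The order of the libraries was that of all macrophage-like cells, and PVM-like cells were 1.51-, 2.73- and 7.83-fold below WT. Cells varied widely around these levels: in WT the middle PVM-like cell had 746 CPM, and the 10th and 90th percentiles were 0 and 4763 CPM. A set of 7 heat-shock and immediate-early genes (Hspa1a, Hspa1b, Dnajb1, Hsph1, Fos, Jun and Atf3) had the same order of libraries as Hmox1 in PVM-like cells. These genes respond to stress and to tissue dissociation and were chosen after their values were seen. Their summed level in PVM-like cells was 20415, 15161, 6892 and 4434 CPM. In LAM-like cells of the 3 obese libraries it was 2975, 2150.1 and 2254 CPM, where Hmox1 was at 174, 267 and 111 CPM. There db/db 16w had the least of the set but the most Hmox1. In stromal-like cells the set was also lower than in WT, at 11222, 8696, 4269.7 and 4865 CPM, whereas Hmox1 there was between 63.7 and 94.3 CPM.

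Within single libraries, PVM-like cells were split by a UMI of the heat-shock genes alone (Hspa1a, Hspa1b, Dnajb1 and Hsph1), without Fos, Jun and Atf3. Those with such a UMI had more Hmox1 in both db/db libraries, at 944 against 201 CPM at 8w (1399 and 84 cells) and 538 against 364 CPM at 16w (223 and 77 cells). In HFD the values were 165 and 217 CPM (62 and 18 cells), and in WT only 6 cells lacked such a UMI. Cells with more UMIs are more likely to have one of these genes, and the part of these genes or of the whole set in the Hmox1 levels was not tested. PVM-like cells with UMIs of inflammatory genes (Il1b, Ccl4, Ccl3, Cxcl2, Nlrp3) had less Hmox1 than the rest in WT, at 854 against 2392 CPM (541 and 502 cells), and in db/db 8w, at 734 against 1395 CPM (920 and 563 cells). The other libraries had few such cells and no common direction, with 438 against 522 CPM in db/db 16w (39 and 261 cells, log2 interval -0.60 to 0.09) and 204 against 139 CPM in HFD (40 and 40 cells, -0.23 to 1.38). Slc40a1 was at 17 against 44.1 CPM in WT and at 14 against 31.5 CPM in db/db 8w, and its log2 differences of -0.62 (db/db 16w) and -1.86 (HFD) had intervals that included 0. Fth1 was higher in the inflammatory cells in all 4 libraries, by 0.50, 0.28, 0.19 and 0.20 on the log2 scale. The inflammatory cells also had more UMIs a cell in each library, such as a mean of 8362 against 4695 in WT and 5665 against 3499 in db/db 8w. The part of depth in these differences was not tested.

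**Figure D3:**
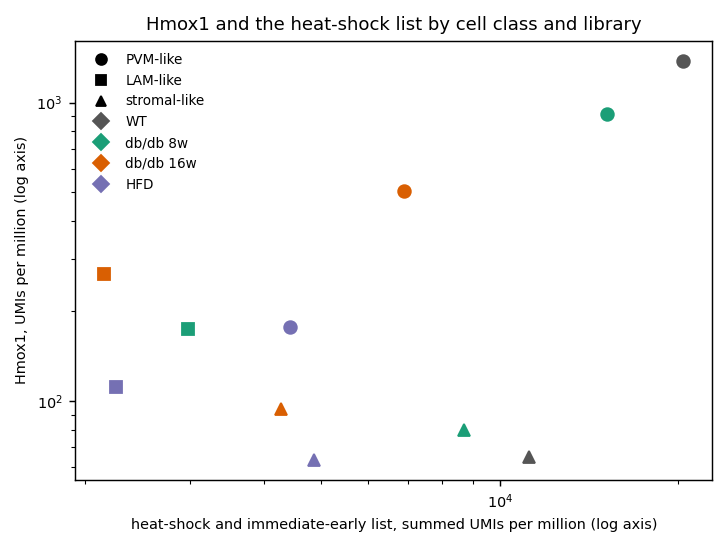
Hmox1 level (vertical) against the summed level of the 7 heat-shock and immediate-early genes (horizontal), both in CPM on log axes, 1 point for each cell class (shape) and library (colour). PVM-like points run from 1381 CPM of Hmox1 at 20415 CPM of the set in WT to 176 at 4434 in HFD, while stromal-like points stay between 63.7 and 94.3 CPM of Hmox1.

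Slc40a1 in PVM-like cells of db/db 16w was far above WT, which it was not in all macrophage-like cells of that library. Its PVM-like levels were 26.3 (95% interval 22.6 to 30.4), 18.8 (15.8 to 22.2), 127 (107 to 151) and 30.8 CPM (15.4 to 55.1), the last from 11 UMIs. Among PVM-like cells only the db/db 16w library was high, 2.28 above WT on the log2 scale (1.94 to 2.61), and db/db 8w lay below WT (-0.48). The high level was not limited to this subset. Stromal-like cells of db/db 16w exceeded their WT counterparts by 3.29 (15.2 against 1.56 CPM), followed by HFD at 10.2 CPM. Of the obese libraries, db/db 16w had the highest LAM-like level, 10.9 CPM, with HFD at 5.11 and db/db 8w at 3.12. Its endothelial-like cells held 1 Slc40a1 UMI. Red cell transcripts were also highest in db/db 16w. The erythroid list (Hbb-bs, Hbb-bt, Hba-a1, Hba-a2, Alas2) summed to 15063 CPM over all cells of that library against 54.1 to 698 in the others. In PVM-like cells it summed to 164 CPM there, against 5.23, 47.5 and 8.4 CPM in the other 3 libraries. Of these 3, db/db 8w had the highest erythroid level and the lowest Slc40a1 level. The part of the erythroid list in the Slc40a1 level was not tested. Slc40a1 was detected in 9.35% of thinned db/db 16w PVM-like cells and in 1.66% to 2.5% of those of the other libraries.

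For Tfrc the PVM-like levels were 107, 140, 29.5 and 64.4 CPM, with log2 ratios of 0.39, -1.87 and -0.74. Cp in PVM-like cells was at 138, 79.1, 33.3 and 64.4 CPM, below WT in all 3 obese libraries. The stromal marker list in PVM-like cells had the same order of libraries, at 758, 504, 49.4 and 331 CPM, and its part in the Cp level was not tested. Trf in PVM-like cells was at 664, 711, 474 and 1137 CPM, and Slc11a1 at 93.7, 83.1, 49.4 and 98 CPM. For both, db/db 16w was lowest and HFD highest.

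**Figure D4:**
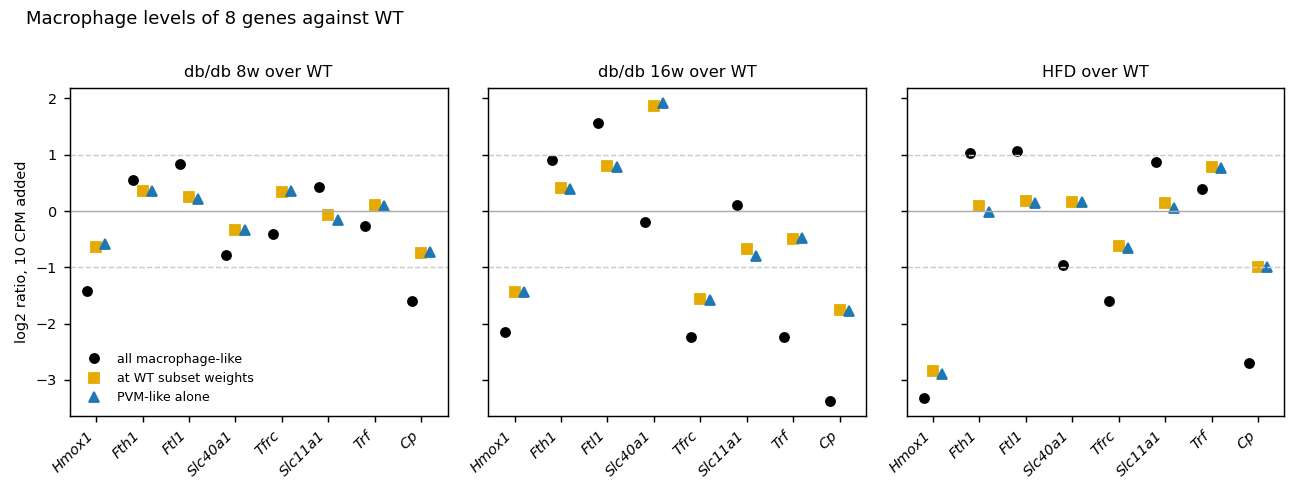
Log2 ratio to WT of each gene in each obese library, with 10 CPM added, for all macrophage-like cells (circles), at WT subset weights (squares) and for PVM-like cells alone (triangles), with dashed lines at 2-fold and no error bars. Ferritin in HFD lies just above the upper dashed line in all macrophage-like cells and near 0 in PVM-like cells, Hmox1 is below 0 in every library, and Slc40a1 in db/db 16w is at -0.19 in all macrophage-like cells and at 1.92 in PVM-like cells.

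Cycling LAM-like cells, with UMIs of genes such as Mki67 and Top2a, were compared with the other LAM-like cells of their library (112 and 771, 559 and 1123, and 158 and 1017 cells in the 3 obese libraries). The log2 difference of cycling from other cells was -0.83, -0.65 and -0.68 for Hmox1, and -0.42, -0.45 and -0.22 for Fth1. It was -0.46, -0.78 and -0.41 for Slc11a1, and -0.81, -1.62 and -0.80 for Trf. Ftl1 was nearly level (0.03, -0.08 and 0.08). The CPM level of the heavy chain of ferritin was thus lower in cycling cells of each of these libraries, and that of the light chain had no common direction. Cycling cells also had more UMIs a cell, with means of 15267, 12114 and 11905 against 8994, 7510 and 7776 in the other LAM-like cells. The part of depth in these differences was not tested.

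Between the obese libraries, Trf in LAM-like cells stood far apart: the log2 ratio of the older to the younger db/db library was -2.11, that of the older db/db library to HFD was -3.18, and that of HFD to the younger db/db library was 1.06. The age of the mice, the library and the sex-linked transcripts of db/db 16w cannot be told apart in these differences. In the ratios that involve HFD, genotype and diet differ as well and cannot be told apart from these.

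In stromal-like cells 1 call was made against WT among the genes that passed the level filter. Of the 8 genes 5 passed it (Hmox1, Fth1, Ftl1, Trf and Cp), and Trf in db/db 16w was the 1 pair called, lower than in WT. Slc40a1, Tfrc and Slc11a1 were too low to be called. With 10 CPM added and no filter, Slc40a1 in db/db 16w (1.12) and Slc11a1 in HFD (1.13) were past 2-fold. For db/db 8w 2.98% of 6316 genes were called higher and 1.77% lower, in db/db 16w 9.26% and 10.1% of 6608, and in HFD 7.51% and 5.51% of 6696. Trf had log2 ratios of -0.34, -2.0 and 0.97. Ftl1 was above WT in all 3 by 0.32, 0.62 and 0.76, and Fth1 stayed between 3200.0 and 3729 CPM. The median log2 ratio of the 5 genes, with 10 CPM added, was -0.10, 0.23 and 0.76 against 0.02, 0.01 and 0.09 over all genes.

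Cp depended on the stromal subset. Committed stromal-like cells had 317, 170, 169 and 285 CPM of Cp, whereas progenitor stromal-like cells of WT, the younger db/db mice and HFD had 90.7, 47.7 and 51.4 CPM (db/db 16w had 29 such cells and was left out). The log2 difference of progenitors from committed cells was -1.81, -1.84 and -2.47 in those libraries. Committed cells of both db/db libraries had less Cp than those of WT (-0.90 and -0.91), whereas the log2 ratios over all stromal-like cells together were -0.15 and 0.24. The WT library held 819 committed and 3134 progenitor cells, and db/db 16w held 1087 and 29. Hmox1 in committed cells was at 99.3, 95.2, 95.2 and 67.2 CPM.

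Other lineages were smaller and some were present in 1 library. Endothelial-like cells had 17, 89.7 and 31.9 CPM of Hmox1 in the obese libraries, and those of HFD had 34.5 CPM of Tfrc (224 UMIs), above the 25.2 CPM of macrophage-like cells of that library, whereas those of db/db 8w and 16w held 1 and 4 Tfrc UMIs (5.66 and 3.12 CPM). T and NK cells had 88.4 and 42.2 CPM of Tfrc in the younger and older db/db mice, and no Slc40a1 UMI, which allows up to 9.47 and 25.3 CPM. In db/db 8w, Tfrc in T and NK cells was thus of the size of that in macrophage-like cells (70.6 CPM). The 101 neutrophil-like cells of db/db 8w had 174 CPM of Slc11a1, 232 of Hmox1 and 58 of Slc40a1 (11 UMIs). The 52 monocyte-like cells of HFD had 113 CPM of Slc11a1 and 158 of Trf, and the 62 dendritic-like cells had 298 CPM of Trf but 1 UMI of Slc11a1. Slc11a1 was thus seen in phagocytes other than macrophages, while Tfrc was also seen in lymphocytes and in the endothelium of HFD.

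**Figure D5:**
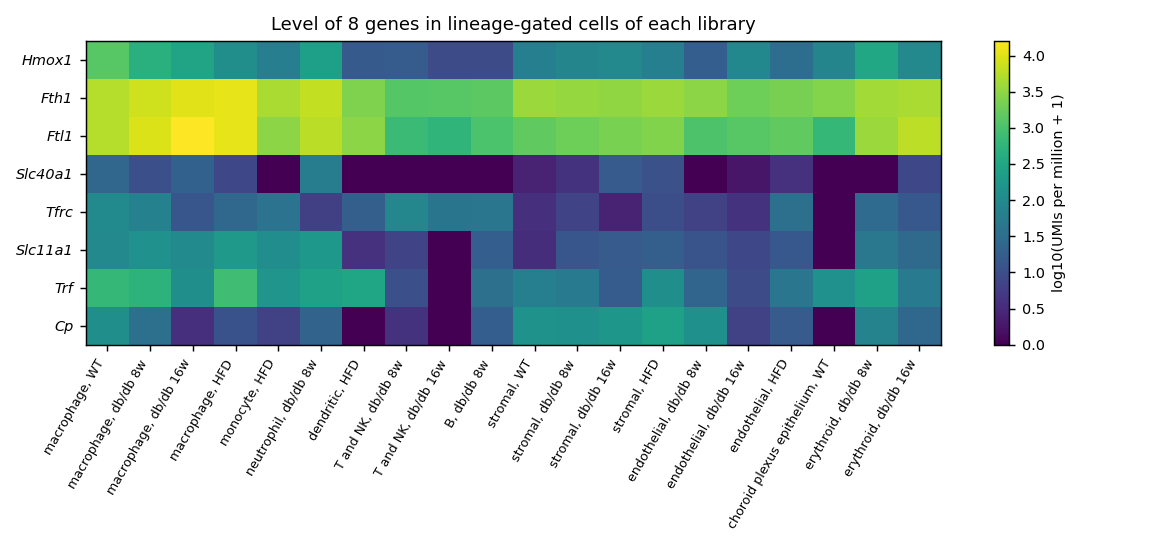
Level of the 8 genes by lineage and library as a shaded grid, as log10 of CPM with 1 added, for lineages of at least 50 cells; the darkest shade is 0 UMIs. Hmox1, Ftl1 and Trf have high levels in macrophage-like cells, Cp is seen in all 4 stromal columns, in WT macrophage-like cells and in db/db 8w endothelial-like cells (130 CPM, 23 UMIs, 19 of them in 1 cell), and Slc40a1 is at 0 in dendritic-like, B and T and NK columns.

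Other genes of the pathway were followed as 4 lists. Their counts are to be read against all genes tested, of which 17.6% were higher and 13.3% lower in LAM-like than in PVM-like cells. In the list for heme uptake and breakdown, 9 of 11 genes were tested between LAM-like and PVM-like cells, and 4 were higher and 2 lower in LAM-like cells. Lrp1, which takes up heme bound to hemopexin, was 1.13 higher (edgeR adjusted p = 7.44e-05), and Cd163, the hemoglobin scavenger receptor, was lower (-4.2, adjusted p = 3.44e-11). Spic, a transcription factor of iron-recycling macrophages, had -1.30 and did not pass (adjusted p = 0.0553). In the list for iron uptake, storage and regulation, 12 of 17 were tested, 2 were higher, led by the ferrireductase Steap3 (1.22, adjusted p = 3.07e-04), and 4 lower, among them Steap4 (-3.26, adjusted p = 1.24e-05) and Hfe (-1.33, adjusted p = 2.39e-05). In heme and iron-sulfur synthesis 4 of 12 were higher, among them Alas1, the first enzyme of heme synthesis (1.21), and 1 lower, the mitochondrial iron importer Slc25a37 (-1.39). Of 6 tested targets of NRF2, a factor that also drives Hmox1 and ferritin, 5 were higher in LAM-like cells, led by Slc7a11 (2.47), Srxn1 (1.49) and Gsr (1.12), and none was lower, whereas Hmox1 itself was lower. The list medians were -0.03, -0.24, 0.46 and 1.11 against 0.0023 over all genes. Without db/db 16w, 4, 1, 2 and 3 genes of the lists were higher and 1, 3, 1 and 0 lower, and of the genes named here as called, Gsr was lost (0.95, adjusted p = 0.0617). Without db/db 8w, 3 NRF2 targets were higher, and Slc7a11 was the named gene lost (1.40, edgeR adjusted p = 0.289).

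Between macrophage-like and stromal-like cells 7 of 10 tested genes of heme uptake and breakdown were higher in macrophages, among them Spic (6.07) and Cd163 (4.96), and 2 lower, Flvcr2 (-6.69) and Lrp1. For iron uptake, storage and regulation 3 of 14 were higher and 4 lower, led by Steap4 (-4.34), the ferroxidase Heph (-3.07) and Steap3 (-1.38). For synthesis 3 of 12 were higher, with Slc25a37 at 1.67 and Alas1 at 0.86, and 2 lower, with Cpox at -0.86. Of 7 NRF2 targets 3 were higher, led by Slc7a11 (2.98) and Txnrd1 (1.45), and none was lower, while Nqo1 had -0.98 and did not pass (edgeR adjusted p = 0.123). The list medians were 1.43, -0.24, 0.17 and 0.50. Among all genes tested in this comparison, 26.2% were higher and 27.2% lower in macrophage-like cells, and the counts of the lists are to be read against these shares. Without db/db 16w, 7, 3, 1 and 2 genes were higher and 1, 3, 2 and 0 lower, and Lrp1 (adjusted p = 0.0676), Heph (0.0774) and Alas1 (0.0728) were lost among the genes named here.

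Against WT in macrophage-like cells, 1, 3 and 3 genes of heme uptake and breakdown were called higher and 0, 2 and 1 lower in the 3 obese libraries, of 6, 6 and 7 past the filter, to be read against the shares of all genes called that were given for these comparisons. Lrp1 was at 80.5, 243, 400.0 and 432 CPM, higher than WT in each obese library. Cd163 was at 628, 440.1, 71.9 and 40 CPM, but within PVM-like cells at 699.8, 959, 686 and 389 CPM, so that the lowest obese library there was HFD and db/db 8w lay above WT. Bach1, a heme-binding repressor of Hmox1 and of ferritin, was at 252, 319, 59.7 and 140.1 CPM, and was lower in db/db 16w (-1.91). For iron uptake, storage and regulation 1 gene was called higher, in HFD, and 1 lower, in db/db 16w, of 8 to 10 past the filter. Synthesis had 1 gene called lower in db/db 16w and 1 in HFD. NRF2 targets had 2, 1 and 1 called higher, of 6, 5 and 4 past the filter, and none lower. In stromal-like cells the lists had at most 1 call in either direction in any library, with Steap4 at 46.3, 100.4, 241 and 198 CPM.

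The genes most like each member were sought over 20 sums of lineage and library, from 10 lineages in 4 libraries that share cells' libraries and depth, by Pearson's r of log2(CPM + 10), as a description with no test. Hmox1 was most like Prxl2b (0.877), Tmod1 (0.876) and Ninj1 (0.869). Fth1 was most like Ctsa (0.949), Ctsb (0.933) and Ftl1 (0.912), and Ctsa and Ctsb encode lysosomal proteases. Ftl1 was most like Trem2 (0.957), Cd68 (0.948) and Cd300c2 (0.931), and Trem2 is a marker of the LAM gate. Slc11a1 was most like Pla2g7 (0.961), Igsf6 (0.942) and Fcgr4 (0.942), and Trf like Ccl9 (0.913), Rbm47 (0.903) and Ccl6 (0.893). Cp was most like Kank2 (0.907), Ctsf (0.895) and F3 (0.893), and Tfrc like Gch1 (0.841), Il2rg (0.831) and Tspan32 (0.819). Slc40a1 had the weakest likeness, with Gm50022 (0.834), Mmp9 (0.789) and Prtn3 (0.77).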

How the data were processed

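Raw UMI counts per gene and cell were deposited by the authors as 1 filtered 10x matrix for each of the 4 libraries, made with Cell Ranger (7.1.0 in the submitters' processing notes, 6.0.0 in the matrix header) on mm10. Cells of 250 to 6000 genes, 500 to 30000 UMIs and under 15% mitochondrial UMIs were kept. A cell was gated to a lineage at 3 or more UMIs from 2 or more of its markers and at least 2 times every other list, and to a macrophage subset at 2 UMIs and 2 times the other list. Cells that reached several lists were set aside, and no doublet caller was run. Counts were summed per class and library (at least 50 cells). Classes were compared with edgeR 4.0.16 in R 4.3.3 (filterByExpr, TMM, quasi-likelihood test, library block, adjusted p under 0.05), and DESeq2 1.42.0 as an alternative. The planned LAM-PVM fit of 4 libraries used 3, because WT had under 50 LAM-like cells. Standard errors follow from the F statistic. Gate genes are not results. Libraries were set against WT without a test, with exact Poisson or conditional binomial 95% intervals. Scripts were tested on simulated data. The genes and lists were chosen with earlier results of these data known. From each list the 3 largest differences past the filter qualified to be named, and each member was given its 3 most similar genes. The result for 1 gene of these lists is not reported here.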

Additional observations from a re-analysis of the deposited data

Results flagged for a closer look

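In committed stromal-like cells Trf went in opposite directions against WT. With 10 CPM added, its log2 ratio was -1.28 in db/db 16w and 1.24 under HFD, where its levels were 13.5 and 124 CPM against 46.9 CPM in WT. The difference was not tested, since each group is 1 library, and it is 1 of 312 pairs of ratios examined in this way. Macrophage-like cells had the same order for Trf, from 124 CPM (db/db 16w) over 620.1 CPM (WT) to 814 CPM (HFD). In committed stromal-like cells the macrophage marker list was at 232 CPM (db/db 16w), 191 CPM (WT) and 491 CPM (HFD). Its part in their Trf level was not tested.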

How the results depend on the processing

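Between LAM-like and PVM-like cells 3786 genes were called, against 2301 with DESeq2 and 166 with no replicate block (library), and from 1790 to 3792 when 1 library was left out, while stricter or thinned gates left 2 of the 3 libraries with 50 cells in both subsets. Between macrophage-like and stromal-like cells 7826 were called, against 5180 with no replicate block and from 4713 to 7425 when 1 library was left out. Of the 24 member-library pairs against WT in macrophage-like cells 12 were past 2-fold, and 5 at WT subset weights as well as in PVM-like cells alone, where Fth1 in HFD changed sign (-0.015). Under either setting 8 of the 12 were lost, and Slc40a1 in db/db 16w was gained. In stromal-like cells 1 pair was called, 3 with no level filter and 2 in committed cells. Fth1 in db/db 16w passed 2-fold under 4 settings (1.0 to 1.11), and Fth1 and Ftl1 in HFD fell under it without the mitochondrial limit (0.89 and 0.88) and after centring on the median of all genes (0.86 and 0.89). Of 32 member-library pairs, 27 had a higher share of cells with a UMI in macrophage-like than in stromal-like cells at each depth used. Settings that reweight or restrict subsets were added after the data were seen. Slc40a1 and, in LAM-like cells, Cp rest on few UMIs, which limits their precision.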
